A study of Oryza sativa with 30 samples.

Results

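Rice is a short-day plant: when days shorten, the leaves send a mobile flowering signal to the shoot apex. The apical meristem then stops making leaves and starts to make the panicle. Day length is read by the circadian clock together with light receptors, so genes of the clock and of light input are among those known to change their level when the photoperiod changes. The loci described here are those whose RNA was higher in the shoot apex on every sampled short day in both of the cultivars studied.

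Shoot apices were dissected under a microscope from 6-week-old rice plants (Oryza sativa) of the temperate japonica cultivars Taichung 65 (T65) and Nipponbare (NB), and their RNA was sequenced. Day 0 apices came from plants kept under long days of 16 h light with 8 h dark. The others came from plants moved to short days, of 10 h light with 14 h dark, for 4, 8 or 12 days. The labels hold no long-day apices for days 4, 8 or 12. Day length thus cannot be told apart from the time since day 0 or from the stage of development. The labels name no mutation or transgene, and the contrast between the cultivars is one of genetic background. The 2 cultivars and 4 days gave 8 groups, with 2 count libraries on T65 day 12 and 3 in every other group. The 30 samples in the labels came to 23 libraries because 5 of the libraries each combined several samples. The sample titles tell these apart by a number alone. The labels number the replicates without saying that they came from separate plants. A p-value here measures only the spread among libraries, which may be technical.

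A locus was included when its mean level in counts per 1000000 gene counts (CPM), with 0.1 added, was at least 1.4 times the day 0 mean of the same cultivar on days 4, 8 and 12, in T65 and in NB, and when its day 0 mean was at least 0.5 CPM in both. Of 55986 loci in the files, 20577 reached that day 0 level. Of these, 195 met the ratio on every short day in T65 (0.948%), 231 did so in NB (1.12%) and 46 did so in both, which is 23.6% of the T65 loci and 19.9% of the NB loci. The clock genes GI (LOC_Os01g08700, smallest ratio 1.53) and PRR95 (LOC_Os09g36220, 1.404) were among the 46 and were set aside by the definition of the set, which left 44 loci. Another 3 loci named for exclusion did not meet the ratio: PRR37 (LOC_Os07g49460, smallest ratio 1.28), PRR73 (LOC_Os03g17570, 1.31) and the MADS-box gene OsMADS18 (LOC_Os07g41370, 1.24). By the same arithmetic 84 loci were lower on every short day in both cultivars. The 44 loci were thus chosen by their measured mean levels on days 0, 4, 8 and 12 in both cultivars, so their rise over day 0 is given as a description with no test. The difference between the cultivars in the rise is built from the same contrasts and is given as a description too. Tests are given for the step between short days within a cultivar, for the difference between the steps, and for the difference between cultivars at day 0. The definition set no order among the short days or between the cultivars, but it used these same means. The difference between the steps is also the difference in rise on day 12 minus that on day 4. Their p-values are thus not independent of the choice of loci, and counts of calls among the 44 loci are descriptive.

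The deposited files name loci by MSU identifiers alone, and 0 of the 44 identifiers were found in the gene table used here, so the loci are given by identifier, without gene names or roles. The identifiers place 10 of them on chromosome 3 and 7 on chromosome 6, which is 22.7% and 15.9% of the set, beside 13.4% and 8.05% of the loci at or above the day 0 level. All 44 had counts in every library, with a lowest count of 3, and all 44 entered the test over 22839 loci.

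Libraries held 8.61 to 24.9 M counts in genes (M is 1000000). Genes of the apical meristem were present in every group: the KNOX homeobox genes OSH1, OSH15 and OSH71, which mark meristem cells in rice, summed to 254 to 431 CPM over the libraries. The secondary wall cellulose synthases CESA4, CESA7 and CESA9, which mark vascular strands, summed to 43.5 to 67.9 CPM. On the second principal component of log2 CPM the high end held T65 day 12 replicate 2, at 48.7, and NB day 4 replicate 1, at 55.8. The low end held NB day 12 replicate 3, at -54.0. Only those at the high end are the libraries said below to stand apart. Reads with several alignments, relative to assigned reads, came to 5.76 to 6.71% in 7 libraries and to 9.59 to 10.9% in the other 16. In T65 the libraries with the lower share were day 0 replicates 2 and 3, day 4 replicate 1 and day 8 replicates 1 and 2. In NB they were replicate 3 of day 8 and replicate 3 of day 12. The lower share was thus spread unevenly over the groups and the cultivars. In tissue RNA of this kind, fewer cells that express a gene and less RNA per cell cannot be told apart.

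The 44 loci covered a wide span of levels. Day 0 means averaged over the cultivars ran from 0.561 to 284 CPM with a median of 6.44 CPM, and 12 loci lay below 2 CPM. In T65 the median ratio to day 0 was 1.78 on day 4, 1.98 on day 8 and 2.39 on day 12. In NB it was 2.42 on day 4, 1.96 on day 8 and 1.91 on day 12. The medians over all loci at or above the day 0 level lay between 0.944 and 0.988 on these days. A ratio of at least 2 was met on every short day in both cultivars by 4 loci, LOC_Os03g18870, LOC_Os06g05930, LOC_Os04g51454 and LOC_Os11g34460.

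**Figure D1:**
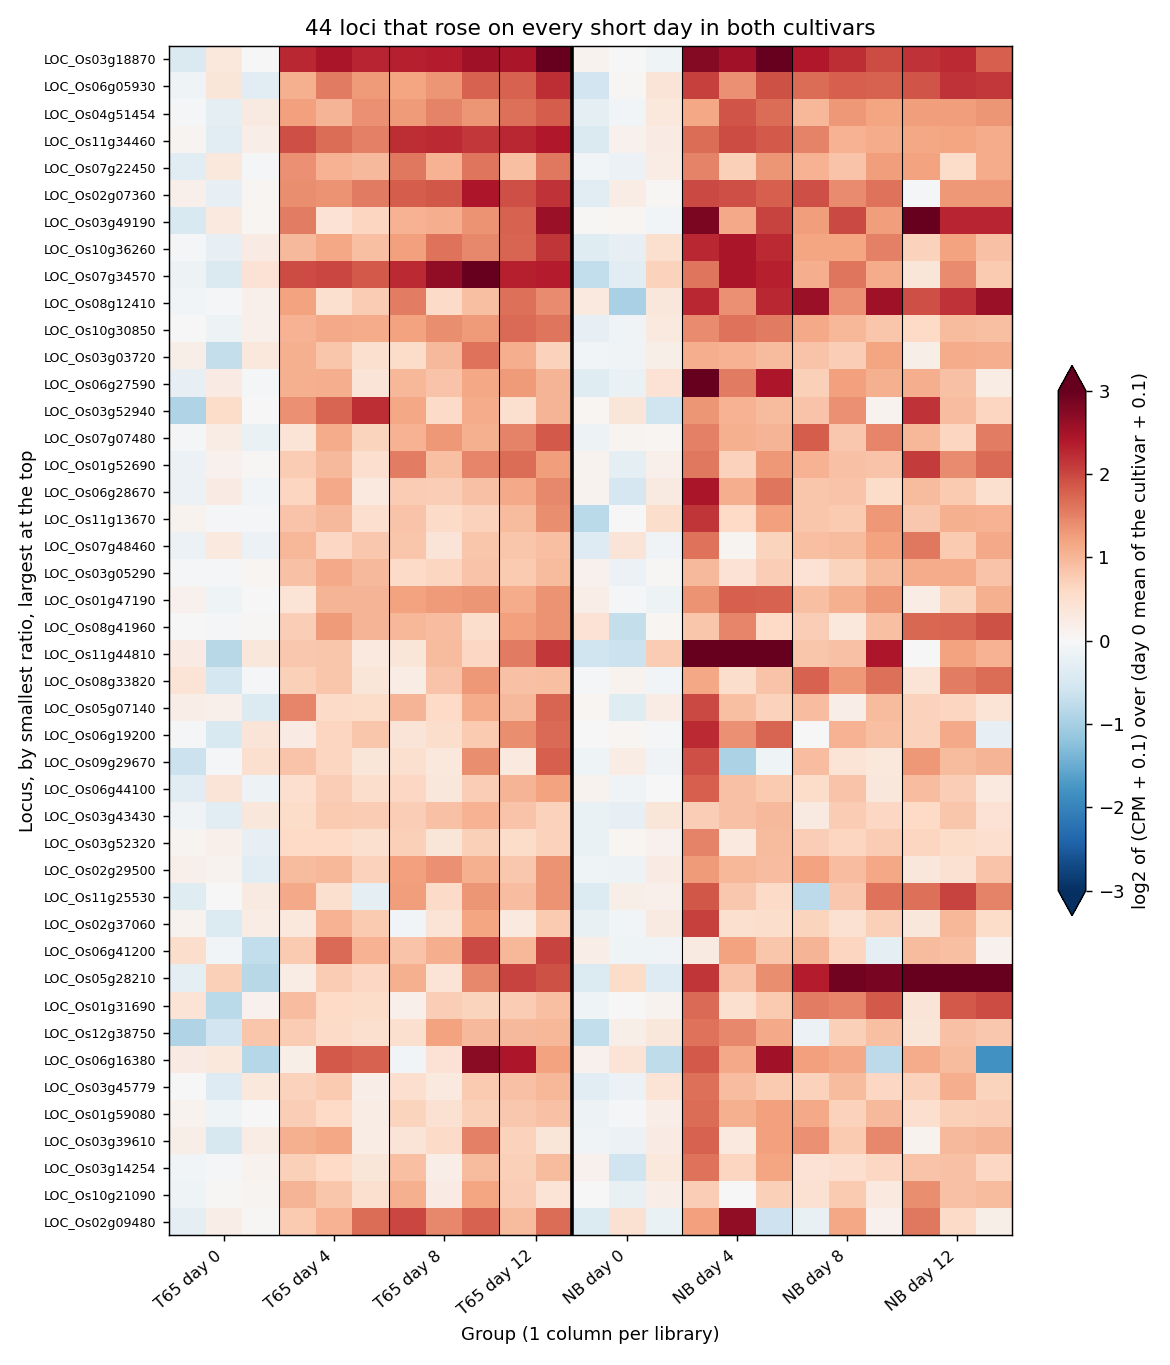
Level of each of the 44 loci in each library as log2 of (CPM + 0.1) over the day 0 mean of the same cultivar plus 0.1 (colour scale, limited at -3 and 3), with T65 libraries left of NB libraries and loci ordered by their smallest ratio. Red cells (higher than day 0) fill the short-day columns, the NB day 4 columns hold many of the darkest cells, and single pale or blue short-day cells mark loci such as LOC_Os09g29670 and LOC_Os06g16380 that were low in some libraries.

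Single libraries followed the group means for most loci in each cultivar taken alone, but not for most in both together. Every short-day library lay above every day 0 library for 31 loci in T65, 25 in NB and 19 in both, and for 7 loci in neither cultivar. Over all loci at or above the day 0 level the corresponding shares were 1.77%, 1.81% and 0.345%, and since the definition used these same libraries the counts are descriptive. The median over the 44 loci of the log2 ratio to day 0 was 0.68 to 1.35 in the T65 short-day libraries and 0.90 to 1.67 in the NB short-day libraries. The highest library median in each cultivar came from the 2 libraries that stood apart at the high end of the second principal component. T65 day 12 replicate 2 held the highest value of its group for 34 of the 44 loci (77.3%, beside 50.3% of all loci at that level), and NB day 4 replicate 1 did so for 32 (72.7%, beside 31.3%). Both were among the 5 libraries merged from several samples, and T65 day 12 replicate 2 had the fewest counts of all libraries (8.61 M). The part of these libraries, of merging and of depth in the levels was not tested beyond leaving both libraries out.

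**Figure D2:**
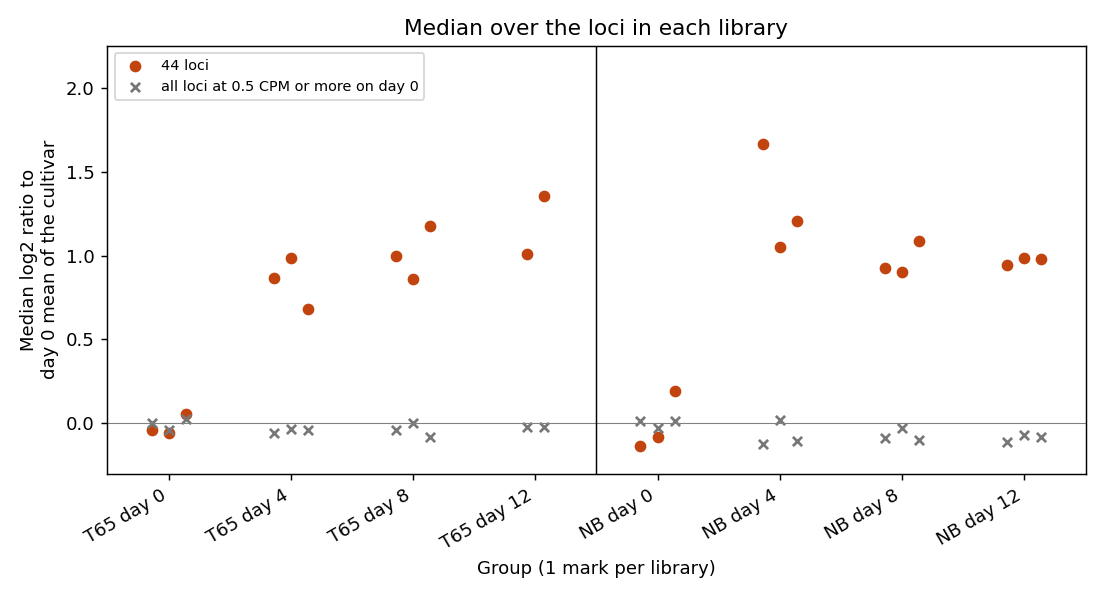
Median over the 44 loci of the log2 ratio to the day 0 mean of the same cultivar (filled circles, 1 per library) and the same median over all loci at or above 0.5 CPM on day 0 (crosses), by group. The short-day circles lie between 0.68 and 1.67, the day 0 circles between -0.13 and 0.19, and the crosses stay near 0.

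The loci differed between the cultivars in the day of their highest mean. In T65, 31 of the 44 were highest on day 12, 10 on day 8 and 3 on day 4. In NB, 27 were highest on day 4, 11 on day 12 and 6 on day 8. Over all loci at or above the day 0 level the highest of the 3 short days was day 12 for 43.0% in T65 and day 4 for 44.1% in NB, beside 70.5% and 61.4% of the 44 loci. The commonest combination was a peak on day 12 in T65 and on day 4 in NB, which held 19 loci. Across the 44 loci the log2 ratios of T65 and NB had a Spearman rho of 0.31 on day 4, 0.36 on day 8 and 0.32 on day 12, as a description over loci that share libraries.

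LOC_Os03g18870, whose smallest ratio was the largest of the set, was low on day 0 and several times higher on each sampled short day. In T65 its values were 2.10, 3.55 and 2.90 CPM on day 0, then 14.1, 16.1 and 14.2 on day 4, then 14.7, 15.1 and 17.1 on day 8 and then 16.0 and 24.0 on day 12. In NB they were 1.63, 1.53 and 1.39 CPM on day 0, then 10.8, 9.10 and 14.6 on day 4, then 8.47, 7.35 and 6.21 on day 8 and then 7.17, 7.48 and 5.52 on day 12. All short-day libraries lay above all day 0 libraries in each cultivar, and the smallest of its 6 ratios was 4.22, on NB day 12. Its level was higher in T65 than in NB already at day 0 (2.85 ± 0.727 and 1.52 ± 0.123 CPM, mean ± SD over 3 libraries each). That difference passed edgeR's quasi-likelihood test with Benjamini-Hochberg adjustment over all loci tested (log2 difference 0.93 ± 0.25, adjusted p = 0.0316). The call was lost when any of the NB day 0 replicates 1, 2 or 3 or the T65 day 0 replicates 2 or 3 was left out, with log2 differences of 0.74 to 0.98.

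LOC_Os06g05930 came next, with ratios of 2.49, 2.73 and 4.03 on days 4, 8 and 12 in T65 and 3.49, 3.35 and 4.18 in NB. Its mean climbed with each sampled day in T65, and in NB it stood at 6.56 CPM by day 4. It had 6.99 ± 1.60 CPM on T65 day 12 against 1.66 ± 0.443 on day 0, and 7.87 ± 0.785 CPM on NB day 12 against 1.81 ± 0.601 on day 0. LOC_Os04g51454 reached 22.0 ± 1.72 CPM on T65 day 12 against 6.50 ± 1.30 on day 0. In NB it was highest on day 4, at 17.8 ± 4.38 CPM against 5.78 ± 1.31 on day 0. LOC_Os07g22450 was the one locus of the set with a called lower level in T65 than in NB at day 0 (3.49, 5.57 and 4.27 CPM in T65 and 8.47, 7.95 and 10.6 in NB, log2 difference -0.99 ± 0.27, adjusted p = 0.0266 by edgeR). Its ratios were 2.21, 2.71 and 2.44 in T65 and 2.31, 2.09 and 1.98 in NB on days 4, 8 and 12. That call was lost without NB day 0 replicate 1 or 3 or T65 day 0 replicate 1 or 3, with log2 differences of -1.03 to -0.83.

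Of the low-level loci among the 10 with the largest smallest ratio, LOC_Os02g07360 stood at 1.09 ± 0.164 CPM in T65 and 1.07 ± 0.212 CPM in NB on day 0. It was highest on T65 day 8 (4.86 ± 1.21 CPM) and NB day 4 (4.28 ± 0.287 CPM), and NB day 12 replicate 1, at 1.03 CPM, lay within the range of the NB day 0 libraries. LOC_Os03g49190 stood at 0.725 ± 0.204 CPM in T65 and 0.819 ± 0.0470 CPM in NB on day 0 and was highest on day 12 in both, at 2.73 and 4.88 CPM in T65 and 8.21, 4.40 and 4.37 CPM in NB. LOC_Os08g12410 had the highest day 0 mean of these 10 loci. It stood at 112 ± 13.1 CPM on T65 day 12 against 38.2 ± 3.52 on day 0, and at 84.7 ± 33.9 CPM on NB day 8 against 17.5 ± 7.55 on day 0. Its NB libraries were spread, with replicate 2 the lowest of the 3 on days 0, 4 and 8.

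Most of the called differences between the cultivars were in the step between day 4 and day 12. In T65 1 locus rose between these days and 0 fell (2.27%, beside 1.14% of all loci tested in either direction and 0.539% higher), with 12 at an unadjusted p under 0.05. In NB 13 of the 44 loci fell and 2 rose (34.1%, beside 31.7% of all loci tested), so the share called in either direction was near the background. By direction, the NB calls came to 29.5% of the 44 lower, beside 15.6% of all loci tested, and 4.55% higher, beside 16.1%. The median log2 step was 0.37 in T65 and -0.40 in NB over the 44 loci, and 0.00 and -0.03 over all loci tested. The T65 step was the more positive one in 35 of the 44 loci, and the difference between the steps was called in 15 (34.1%, beside 24.4% of all loci tested). Of these, 14 were more positive in T65 (31.8%, beside 12.0%) and 1 was more positive in NB (2.27%, beside 12.4%). The day 4 and day 12 means helped choose the 44 loci, and the loci tested as a whole were not chosen for a rise. The shares of calls for the steps are thus descriptive, and nothing is read from them. The count for T65 was 0 without T65 day 4 replicate 1, 2 or 3 or without T65 day 12 replicate 2, and 2 without NB day 0 replicate 1 or 3 or NB day 4 replicate 1 or 2. The same T65 count was 6 when only the groups compared were fitted, 2 with a replicate block and 3 by DESeq2. For the difference between the steps, leaving out single libraries gave 12 to 18. Without both libraries that stood apart, the T65 step gave 0 calls, the NB step 21 and the difference between the steps 11. The NB step without NB day 4 replicate 1 alone gave 9 calls higher and 12 lower, against 2 higher and 13 lower in all libraries. The balance of directions in NB thus depended on that library. Shares over all loci tested are not given for these settings, so nothing is read from their counts.

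**Figure D3:**
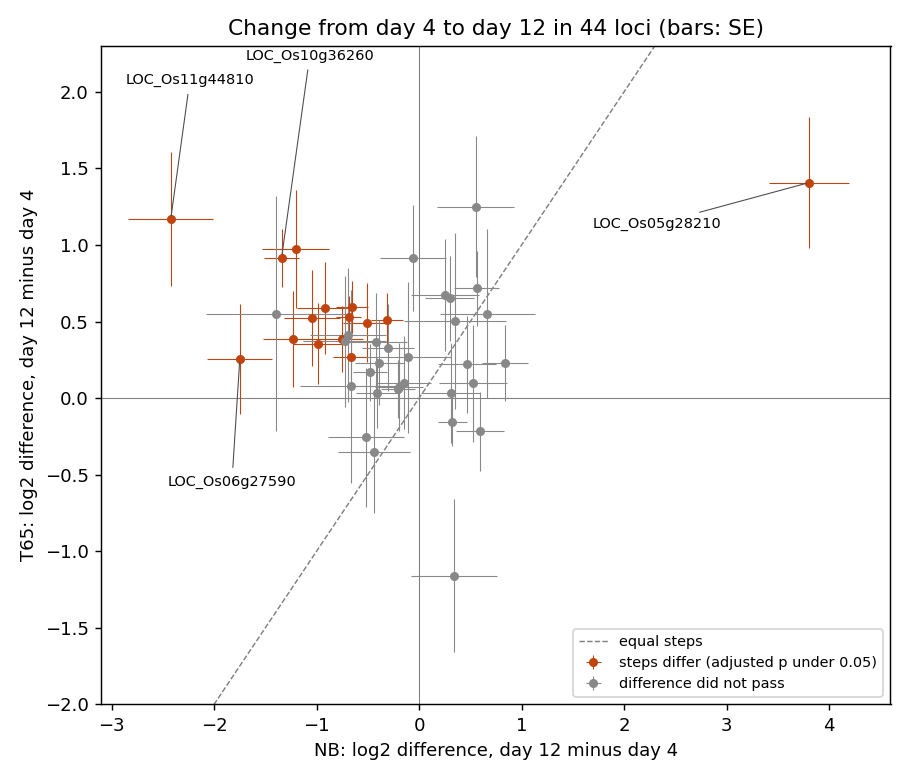
Log2 difference between day 12 and day 4 in T65 (vertical axis) and in NB (horizontal axis) for the 44 loci, with bars of 1 SE on each axis and the dashed line marking equal steps. Loci whose steps differed by edgeR (15, in orange) lie above the line and left of 0 for the most part, with LOC_Os11g44810 at 1.17 in T65 and -2.42 in NB, while LOC_Os05g28210 lies far to the right at 1.41 in T65 and 3.81 in NB.

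LOC_Os10g36260 had the smallest p for the difference between the steps. In T65 its values were 21.0, 18.2 and 25.6 CPM on day 0, then 42.3, 48.3 and 40.4 on day 4, then 50.6, 67.5 and 58.7 on day 8 and then 72.8 and 95.6 on day 12. In NB they were 12.6, 13.6 and 22.5 CPM on day 0, then 77.7, 88.6 and 77.0 on day 4, then 37.2, 37.2 and 46.3 on day 8 and then 26.3, 37.7 and 29.8 on day 12. In T65 each later group was higher than the one before it on average, and in NB the day 4 libraries lay above all other NB libraries. Between day 4 and day 12 it rose in T65 (edgeR log2 difference 0.91 ± 0.19, adjusted p = 0.0226) and fell in NB (-1.34 ± 0.17, adjusted p = 9.77e-06), and the steps differed (2.26 ± 0.26, adjusted p = 5.33e-06). The log2 difference of its rise over day 0, T65 minus NB, was -1.31 ± 0.25 on day 4 and 0.94 ± 0.26 on day 12, as a description. The T65 step was not called without T65 day 12 replicate 2 (0.73) or without any of the T65 day 4 replicates (0.86 to 0.99).

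LOC_Os11g44810 had the largest NB day 4 ratio of the set, at 9.72. In T65 its values were 62.7, 29.9 and 66.7 CPM on day 0, then 93.7, 94.8 and 65.1 on day 4, then 68.9, 103 and 81.2 on day 8 and then 156 and 233 on day 12. In NB they were 18.4, 18.0 and 47.4 CPM on day 0, then 302, 270 and 246 on day 4, then 49.8, 51.3 and 151 on day 8 and then 27.5, 64.4 and 57.5 on day 12. All 3 NB day 4 libraries lay above every other library of either cultivar. On NB day 12, replicate 1 lay within the day 0 range. The log2 difference of its day 4 rise, T65 minus NB, was -2.63 ± 0.58, as a description. Its T65 step between day 4 and day 12 was not called (edgeR log2 difference 1.17 ± 0.44, adjusted p = 0.178). In NB it fell between these days (-2.42 ± 0.42, adjusted p = 0.000182), and the steps differed (3.59 ± 0.60, adjusted p = 0.000209).

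LOC_Os11g34460 is on the list of clock and light-input genes used here. In T65 its values were 5.46, 4.04 and 5.96 CPM on day 0, then 20.0, 16.7 and 14.8 on day 4, then 24.3, 24.9 and 22.8 on day 8 and then 25.1 and 27.9 on day 12. In NB they were 3.13, 4.67 and 5.07 CPM on day 0, then 13.9, 16.87 and 15.7 on day 4, then 12.17, 9.01 and 9.41 on day 8 and then 9.69, 9.90 and 9.34 on day 12. The cultivars overlapped on day 4, and from day 8 all T65 libraries lay above all NB libraries. The log2 difference of its day 12 rise, T65 minus NB, was 1.12 ± 0.25, as a description. Its T65 step between day 4 and day 12 was not called (edgeR log2 difference 0.59 ± 0.17, adjusted p = 0.0797), and in NB it fell (-0.65 ± 0.16, adjusted p = 0.00323).

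LOC_Os10g30850 followed a like course, with 27.4 ± 1.12 CPM on T65 day 12 and 12.7 ± 1.63 CPM on NB day 12, against 18.7 ± 0.708 CPM on T65 day 4 and 20.9 ± 1.48 CPM on NB day 4. It fell between these days in NB (-0.69 ± 0.12, adjusted p = 0.000260 by edgeR). The steps differed (1.22 ± 0.18, adjusted p = 7.08e-05). LOC_Os07g34570 reached its highest mean on T65 day 8 (114, 153 and 193 CPM, against 21.7, 18.0 and 33.0 on day 0) and on NB day 4 (48.5, 87.1 and 80.4 CPM, against 9.44, 12.5 and 25.5 on day 0). It fell between day 4 and day 12 in NB (-1.23 ± 0.30, adjusted p = 0.00323 by edgeR), where day 12 replicate 1 overlapped the day 0 libraries, and its steps differed (1.62 ± 0.43, adjusted p = 0.00884).

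**Figure D4:**
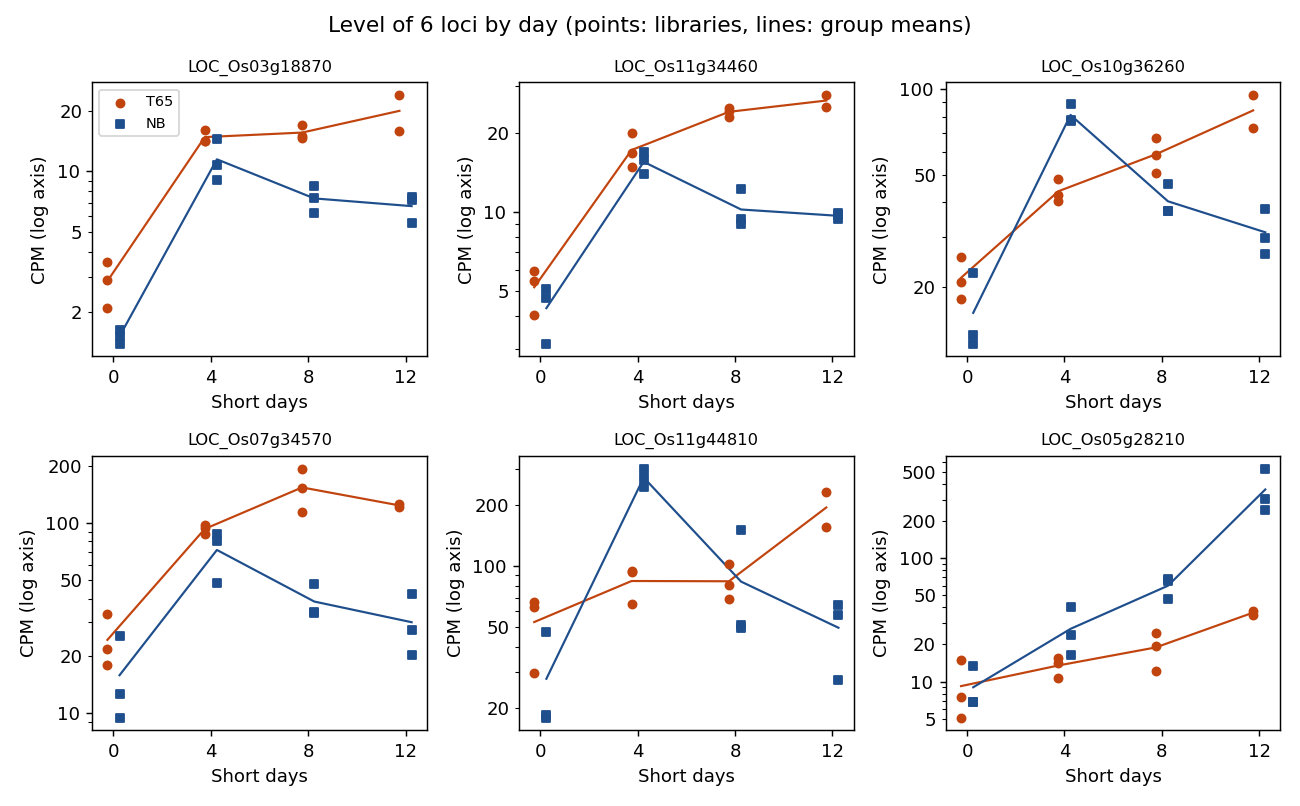
Level of 6 loci in CPM (log axis) against the number of short days, with 1 point per library (T65 circles, NB squares) and lines through the group means. In the panels of LOC_Os03g18870, LOC_Os11g34460, LOC_Os10g36260, LOC_Os07g34570 and LOC_Os11g44810 the T65 line is highest on day 8 or day 12 and the NB line on day 4, whereas for LOC_Os05g28210 both lines climb to day 12 and NB reaches 247 to 535 CPM.

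LOC_Os06g27590 stood at similar levels on the T65 short days, with 9.69 ± 1.74 CPM on day 0, 17.9 ± 4.58 on day 4, 19.6 ± 2.17 on day 8 and 21.6 ± 2.79 on day 12. In NB it had a tall day 4 peak that differed between libraries, at 94.0, 30.4 and 55.1 CPM, against 7.94, 8.89 and 13.7 on day 0, with replicate 1 the highest. It fell between day 4 and day 12 in NB (-1.75 ± 0.32, adjusted p = 0.000296 by edgeR), and the steps differed (2.00 ± 0.47, adjusted p = 0.00393). LOC_Os06g19200 and LOC_Os06g28670 had smaller peaks of this kind, with NB day 4 values of 6.22, 3.37 and 4.43 CPM and 36.2, 14.2 and 20.2 CPM, again highest in replicate 1. Both fell by day 12 in NB by edgeR (-1.20 ± 0.33, adjusted p = 0.00762, and -1.05 ± 0.27, adjusted p = 0.00566). The steps differed for both (2.18 ± 0.50, adjusted p = 0.00334, and 1.57 ± 0.41, adjusted p = 0.00832). The NB fall of LOC_Os06g19200 was not called without NB day 12 replicate 3, at -0.88.

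Another 6 loci had a step in T65 that was more positive than in NB by edgeR (adjusted p = 0.00741 to 0.0383): LOC_Os03g18870 (1.14 ± 0.30 on the log2 scale), LOC_Os02g07360 (1.51 ± 0.41), LOC_Os01g47190 (1.34 ± 0.36), LOC_Os01g59080 (0.93 ± 0.26), LOC_Os04g51454 (0.82 ± 0.23) and LOC_Os06g44100 (1.00 ± 0.34). Of these, LOC_Os04g51454 and LOC_Os06g44100 had no called fall in NB alone (adjusted p = 0.138 and 0.0958). LOC_Os02g29500 fell in NB (-0.48 ± 0.16, adjusted p = 0.0308 by edgeR), to 34.1 ± 6.51 CPM on day 12 against 48.7 ± 6.81 on day 4, and the difference between its steps was not called (adjusted p = 0.0625).

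LOC_Os05g28210 went the other way and had the largest ratio of the set. In T65 its values were 7.44, 15.0 and 5.09 CPM on day 0, then 10.7, 15.6 and 14.2 on day 4, then 19.5, 12.26 and 25.0 on day 8 and then 37.7 and 34.8 on day 12. In NB they were 6.80, 13.3 and 6.89 CPM on day 0, then 40.04, 16.4 and 24.0 on day 4, then 46.7, 67.5 and 65.5 on day 8 and then 535, 247 and 304 on day 12. The day 12 libraries lay above all earlier ones in each cultivar, and the day 12 mean was 3.91 times the day 0 mean in T65 and 39.8 times in NB. Its T65 step between day 4 and day 12 did not pass (edgeR log2 difference 1.41 ± 0.43, adjusted p = 0.0989). In NB it rose between these days (3.81 ± 0.39, adjusted p = 8.11e-07), and the steps differed (-2.40 ± 0.57, adjusted p = 0.00419). The log2 difference of its day 12 rise, T65 minus NB, was -3.37 ± 0.60, as a description. On T65 days 4 and 8 its libraries overlapped those of day 0. The inflorescence identity genes OsMADS14, OsMADS15, OsMADS18 and OsMADS34 are MADS-box genes known for turning the apex into a panicle. As values beside those of LOC_Os05g28210, OsMADS18 stood at 109 ± 0.979 CPM on T65 day 12 against 31.2 ± 7.50 on T65 day 0, and at 216 ± 12.4 CPM on NB day 12 against 31.0 ± 6.57 on NB day 0. OsMADS14 stood at 5.62 ± 2.86 CPM on T65 day 12 and 95.6 ± 31.6 CPM on NB day 12, and OsMADS15 at 0.687 ± 0.808 and 187 ± 51.0 CPM. OsMADS34 stood at 0.0217 ± 0.0307 CPM on T65 day 12 and 29.0 ± 16.2 CPM on NB day 12. By edgeR 2 of the 4 rose on T65 day 12 over day 0 (beside 2.9% of all loci tested) and 4 of 4 on NB day 12 (beside 6.38%). The other locus that rose in NB between day 4 and day 12 was LOC_Os08g41960 (0.84 ± 0.23, adjusted p = 0.00786 by edgeR), with 9.79 ± 0.702 CPM on day 12 against 5.60 ± 1.89 on day 4.

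The difference between the cultivars in the rise over day 0, T65 minus NB, was negative for 39 of the 44 loci on day 4, and positive for 25 on day 8 and for 27 on day 12. Its median on the log2 scale was -0.47 on day 4, 0.11 on day 8 and 0.11 on day 12, beside 0.01 over all loci tested on each day. It passed edgeR's threshold for 2 loci on day 4 (4.55%, beside 1.83% of all loci tested), both lower in T65 (beside 0.762%), for 0 on day 8 (beside 0.00876%) and for 4 on day 12 (9.09%, beside 6.81%). Of these 4, LOC_Os11g34460, LOC_Os10g30850 and LOC_Os10g36260 were higher in T65 (6.82%, beside 3.62%) and LOC_Os05g28210 was lower (2.27%, beside 3.19%). On day 8, 5 loci had an unadjusted p under 0.05, and DESeq2 called 0. These contrasts chose the loci, so nothing is read from the counts.

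At day 0, 5 of the 44 loci differed between the cultivars (11.4%, beside 6.53% of all loci tested), with 4 higher in T65 (9.09%, beside 2.77%) and 1 lower (2.27%, beside 3.76%). The definition used these day 0 means as the base of every ratio, so these counts are descriptive and nothing is read from the shares. The largest of these differences was that of LOC_Os11g13670, at 10.9, 9.68 and 9.68 CPM in T65 and 2.16, 3.86 and 5.60 CPM in NB (edgeR log2 difference 1.44 ± 0.32, adjusted p = 0.00712). LOC_Os11g13670 kept the higher level in T65 on each short day, with 23.2 ± 4.95 CPM in T65 and 7.75 ± 0.727 CPM in NB on day 12, and its call was lost without NB day 0 replicate 1 (1.15). LOC_Os08g12410, at 35.9, 36.5 and 42.3 CPM in T65 and 21.5, 8.80 and 22.2 CPM in NB, passed narrowly (1.18 ± 0.35, adjusted p = 0.0493 by edgeR). LOC_Os08g41960, at 4.79, 4.53 and 4.87 CPM in T65 and 3.71, 1.62 and 2.87 CPM in NB, did so too (0.84 ± 0.25, adjusted p = 0.0431). The call of LOC_Os08g12410 was lost without TMM scaling (1.13), in the 16 libraries with the higher multi-alignment share (1.10) and on leaving out any of 16 single libraries, all 6 day 0 libraries among them (0.87 to 1.39). That of LOC_Os08g41960 was lost on leaving out any of 9, 5 of them day 0 libraries (0.58 to 0.88). The count was 1 without NB day 0 replicate 1 or T65 day 0 replicate 3, 2 without NB day 0 replicate 2 or T65 day 0 replicate 1 or 2, and 3 without NB day 12 replicate 1, T65 day 4 replicate 3 or T65 day 12 replicate 1. It was also 3 with no TMM scaling.

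Of the 5 loci with the highest day 0 means, LOC_Os11g44810 and LOC_Os08g12410 are described above, and the other 3 had ratios between 1.48 and 2.32. LOC_Os03g52320, with the highest CPM of the set (a level not scaled to gene length), had 438 and 481 CPM on T65 day 12 against 315, 329 and 250 on day 0, and its T65 ratios were 1.48, 1.52 and 1.54 on days 4, 8 and 12. In NB it was highest on day 4, at 761, 331 and 521 CPM against 234, 280 and 294 on day 0, where replicate 1 was the highest and replicate 2 the lowest. LOC_Os03g05290 had ratios of 1.99, 1.62 and 1.82 in T65 and 1.67, 1.62 and 2.05 in NB over day 0 means of 89.9 ± 3.82 and 88.9 ± 9.77 CPM, and its short-day libraries lay above the day 0 libraries in each cultivar. LOC_Os07g48460 had ratios of 1.76, 1.63 and 1.83 in T65 and 1.90, 2.03 and 2.32 in NB, and its NB day 4 libraries were spread over 162, 55.8 and 83.1 CPM, against 40.2, 69.0 and 48.5 on day 0.

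Membership near the ratio of 1.4 rested on small differences. Just inside were LOC_Os03g14254 (smallest ratio 1.44), LOC_Os10g21090 (1.43) and LOC_Os02g09480 (1.401). LOC_Os02g15860 lay just outside at 1.39999, followed by LOC_Os12g25180 and LOC_Os05g37660, both at 1.39. LOC_Os02g09480 also shows how much 1 library can carry: its NB day 4 values were 19.0, 50.8 and 5.18 CPM, against 6.00, 11.1 and 6.94 on day 0, so replicate 3 lay below all 3 day 0 libraries. Leaving out each library in turn gave sets of 38 to 56 loci, and 16 of the 44 loci, among them all 10 with the largest smallest ratio, met the definition in every such set. In the 16 libraries with the higher multi-alignment share, 29 of the 44 met it, within a set of 73. Without both libraries that stood apart, the set held 46 loci.

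Several of the remaining loci varied widely within a group. LOC_Os09g29670 had T65 day 12 values of 11.3 and 32.4 CPM, against 5.93, 8.92 and 13.01 on day 0. Its NB day 4 values were 45.8, 6.09 and 10.9 CPM, against 10.9, 13.9 and 11.1 on day 0. In each of these groups 1 library alone lay above all day 0 libraries. LOC_Os06g16380 ranged over 3.41, 4.94 and 24.3 CPM on T65 day 8 and 15.8, 13.9 and 1.97 CPM on NB day 12, against 4.37, 4.597 and 1.97 on T65 day 0 and 7.85, 9.61 and 4.21 on NB day 0. Its identifier is next in order to that of Hd1 (LOC_Os06g16370), a photoperiod-response transcription factor gene whose own smallest ratio was 0.606. LOC_Os02g37060 was the one locus highest on day 4 in both cultivars, and its NB mean of 5.22 ± 3.59 CPM came mostly from replicate 1, at 9.36 CPM. LOC_Os03g39610, on the list of green-leaf genes, ranged over 29.5, 34.1 and 64.7 CPM on T65 day 8 and 65.1, 23.2 and 44.5 CPM on NB day 4, against 25.6, 16.2 and 26.4 on T65 day 0 and 17.5, 16.8 and 22.4 on NB day 0.

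Others were low throughout. LOC_Os03g52940, LOC_Os07g07480, LOC_Os05g07140, LOC_Os11g25530, LOC_Os06g41200 and LOC_Os12g38750 had day 0 means of 0.502 to 1.18 CPM, and their groups overlapped in 1 or both cultivars except for LOC_Os07g07480. LOC_Os03g52940 was highest on day 4 in T65 (3.32 ± 1.00 CPM) and on day 12 in NB (2.40 ± 1.51 CPM), whereas LOC_Os06g41200 had its larger ratios in T65 (2.36, 2.64 and 3.04 on days 4, 8 and 12, and 1.76, 1.47 and 1.64 in NB). LOC_Os12g38750 had the fewest sets in which it was kept, 17 of 23 with 1 library left out.

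The last of the set were loci of middle level. LOC_Os01g52690 was highest on day 12 in both cultivars (72.9 ± 14.9 CPM in T65 and 81.4 ± 19.1 CPM in NB, against 25.9 ± 2.77 and 23.8 ± 3.88 CPM on day 0) and its groups did not overlap. LOC_Os08g33820 and LOC_Os01g31690 were highest on day 12 in T65 and on day 8 in NB, where they reached 33.0 ± 5.41 and 18.8 ± 2.76 CPM against 10.9 ± 0.738 and 6.00 ± 0.497 CPM on day 0. On NB day 12 LOC_Os01g31690 was spread over 7.82, 21.9 and 23.7 CPM. LOC_Os03g03720 and LOC_Os03g43430 were highest on day 8 in T65 and on day 4 in NB, with ratios of 1.48 to 2.17. LOC_Os03g45779 was highest on day 12 in T65 and on day 4 in NB, with ratios of 1.49, 1.46 and 1.92 in T65 and 2.26, 1.70 and 1.77 in NB.

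A list of clock and light-input genes held 14 tested loci. GI, PRR95 and LOC_Os11g34460 met the ratios and are left out of the counts here, which leaves 11 loci. Over these and the 6 comparisons of a short day with day 0, edgeR made 15 calls, 13 higher and 2 lower. In the 16 libraries with the higher multi-alignment share it made 5. In T65, 1 of the 11 was higher on day 4 (beside 0.114% of all loci tested), 1 on day 8 (beside 0.486%) and 3 on day 12 (beside 2.9%), with none lower. In NB, 4 were higher on day 4 (beside 10.0%), 2 on day 8 (beside 1.27%) and 2 on day 12 (beside 6.38%), and 2 were lower on day 12 (beside 6.86%). Most of the higher calls came from PRR73 and PRR37, which the definition names for exclusion. The rest were those of PRR1 on NB day 4 and of LOC_Os11g05930 on NB day 4 and T65 day 12. The T65 calls on days 4 and 8 were those of PRR73 alone.

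PRR73, a pseudo-response regulator of the clock, rose on every short day, with log2 changes by edgeR of 0.49 ± 0.08, 0.63 ± 0.08 and 0.63 ± 0.09 on days 4, 8 and 12 in T65 and 0.61 ± 0.08, 0.64 ± 0.08 and 0.47 ± 0.08 in NB (adjusted p = 7.26e-05 to 0.00814). PRR37, of the same family, rose on day 12 in T65 (0.53 ± 0.13, adjusted p = 0.0225) and on every short day in NB, with a log2 change of 0.95 ± 0.12 on day 4 (adjusted p = 4.73e-05). LHY, a morning-phased clock transcription factor gene, and LOC_Os01g38530 were the 2 lower loci, on NB day 12 (-0.41 ± 0.12, adjusted p = 0.0232, and -0.67 ± 0.13, adjusted p = 0.00150). PRR95 had the course seen in many of the 44 loci, with 252 ± 44.2 CPM on T65 day 12 against 75.2 ± 13.5 on T65 day 0, and 166 ± 18.4 CPM on NB day 4 against 56.9 ± 13.8 on NB day 0. The sources used here do not give the time of day of sampling, and the part of clock phase in these levels was not tested.

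The list of photoperiod genes had no member in the set. It held light receptor genes and also other genes such as GF14b, GF14c, LOC_Os01g11940 and LOC_Os02g32950. By edgeR, of its 9 tested loci, 2 rose on T65 day 12 (beside 2.9% of all loci tested) and 0 were called on T65 day 4 or 8, where 2 and 1 had an unadjusted p under 0.05 and DESeq2 called 0. In NB, 4 rose and 1 fell on day 4 (beside 10.0% and 10.2%), 2 rose on day 8 (beside 1.27%), and 3 rose and 1 fell on day 12 (beside 6.38% and 6.86%). The rises on T65 day 12 were those of LOC_Os01g11940 and LOC_Os02g32950. On NB days 8 and 12 LOC_Os01g11940 and GF14b rose, joined on day 12 by LOC_Os02g32950, so none of these rises was of a light receptor gene. The fall on NB day 12 was that of PHYA, a phytochrome photoreceptor, at 82.2 ± 3.55 CPM against 150 ± 17.6 on NB day 0 (log2 change -0.79 ± 0.10, adjusted p = 1.86e-05 by edgeR). On NB day 4 PHYA was called higher (0.33 ± 0.10, adjusted p = 0.0214 by edgeR). The phytochrome genes PHYB (0.25 ± 0.08, adjusted p = 0.0238) and PHYC (0.36 ± 0.09, adjusted p = 0.0074) were called higher on NB day 4 too. Neither PHYB nor PHYC was called on NB day 12. On T65 day 12 PHYA stood at 190 ± 17.3 CPM against 182 ± 21.9 on T65 day 0. LOC_Os01g11940, on this list, stood at 0.528 ± 0.419 CPM on T65 day 12 against 0.129 ± 0.0410 on T65 day 0, and at 16.8 ± 1.397 CPM on NB day 12 against 0.135 ± 0.0739 on NB day 0, and both rises passed (adjusted p = 0.0166 in T65 and 3.80e-11 in NB by edgeR).

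Of 47 loci at or above the day 0 level whose identifiers come just before or after those of the 44, 0 met the ratio of 1.4 throughout (beside 0.224% of all loci at that level, a share at which none among 47 is no result), and 9 were above day 0 by any amount in all 6 comparisons (19.1%, beside 7.53% of all loci at that level). The sources used here do not state the strand setting of the counting, and reads of overlapping loci cannot be told apart.

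Values of other lists are given for T65 day 12 and NB day 4, the days when most of the 44 loci were highest. The cell division genes MCM4, MCM5, MCM6, PCNA, CYCB1-1 and CYCB2-1 encode subunits of the replicative helicase, the replication clamp and mitotic cyclins. They summed to 634 to 693 CPM on T65 day 12 against 835 to 1073 on T65 day 0, and to 550 to 627 CPM on NB day 4 against 898 to 1094 on NB day 0. By edgeR 5 of the 6 fell on T65 day 12 (beside 2.22% of all loci tested) and 6 of 6 on NB day 4 (beside 10.2%), while on NB day 12 2 rose (beside 6.38%). None was called on T65 day 4 or 8 or on NB day 8, where 3, 2 and 1 had an unadjusted p under 0.05 and DESeq2 called 0, 0 and 1. Genes of heat shock and wounding (HSP101, HSP16.9A, JAZ8 and AOS2) summed to 158 to 161 CPM on T65 day 12 against 49.4 to 66.8 on T65 day 0, and to 44.5 to 75.9 CPM on NB day 4 against 43.3 to 64.3 on NB day 0, where the NB groups overlapped, with AOS2 at or near 0 in all groups. Of the 3 of them tested, HSP101 and HSP16.9A rose on T65 day 12 (beside 2.9%). In NB, HSP101 rose on day 4 (beside 10.0%), and JAZ8, a repressor of jasmonate signalling, fell on day 4 (beside 10.2%), day 8 (beside 0.946%) and day 12 (beside 6.86%). Without LOC_Os03g39610, a member of the set, the other 6 green-leaf genes summed to 30.6 to 70.0 CPM in T65 short-day libraries against 20.1 to 37.3 on T65 day 0, and to 23.8 to 114 CPM in NB short-day libraries against 20.8 to 27.4 on NB day 0. Of the 5 of these tested, 0 were called on T65 days 4, 8 and 12, where 2, 1 and 0 had an unadjusted p under 0.05 and DESeq2 called 0, 1 and 0. In NB, 1 rose on day 4 (beside 10.0%), 2 on day 8 (beside 1.27%) and 2 on day 12 (beside 6.38%). The part of these changes in the levels of the 44 loci was not tested.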

How the data were processed

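RNA of rice shoot apices was measured in 23 libraries, and the deposited files hold raw whole-number counts per locus for each, with no normalization, per the file headers and values. The submitters' processing notes list TopHat2 and Bowtie2, HTSeq, and edgeR 3.6.4 in R 3.1.0 as the authors' tools, with no role stated. The sources used here do not give the genome build, the annotation release or the strand setting. The 5 summary lines of each file (reads in no gene, 4.72 to 5.51% of assigned reads, ambiguous reads, 2.01 to 2.44%, and others) were left out.

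Levels are CPM over gene counts, and the set was built from group means of CPM as its definition states. The members, the gene lists, the rule for the named loci and the tests were chosen with earlier results of these data known. Named loci were the 10 with the largest smallest ratio, the 5 with the highest day 0 mean, those with the largest called differences in rise, step or day 0 level, the 3 on each side of the ratio threshold, and members of a gene list. Other loci were named after their values were seen, so that every member is accounted for. Lists held clock, photoperiod, inflorescence, meristem, green-leaf, secondary wall, heat and wounding, and cell division genes. Symbols of list genes come from recalled nomenclature, and only those whose symbol and chromosome were found in a RefSeq gene table (assembly ASM3414082v1) are printed.

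Differences were tested with edgeR 4.0.16 (glmQLFit, glmQLFTest) in R 4.3.3 with TMM scaling and filterByExpr, which left 22839 loci, in 1 model of all 8 groups with 15 residual degrees of freedom. The common biological coefficient of variation was 12.7%. P-values are two-sided, with Benjamini-Hochberg adjustment in every comparison over all loci tested (threshold 0.05), and errors of log2 differences are SE. The difference in rise between the cultivars was fitted too but is given as values and counts only, since the definition used its contrasts. The fit was tested on simulated counts with known changes. Libraries of a group were not duplicates (chi-square per locus 5.93 to 51.5). Same-numbered libraries were not shown to be paired, so no block was used. Alternatives were DESeq2 1.42.0, no TMM, no filter, other ratio thresholds, a replicate block, only the groups compared, only the 16 libraries of the higher multi-alignment share, each library left out, and, chosen after seeing the data, both libraries that stood apart left out. The depth of 8.61 to 24.9 M counts makes 3 counts equal to 0.120 to 0.348 CPM.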

Additional observations from a re-analysis of the deposited data

Results flagged for a closer look

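The flags below mark differences between the cultivars in the same contrast, each by a test of the difference itself (edgeR's quasi-likelihood test, Benjamini-Hochberg adjusted over all loci tested). The loci were chosen from the same libraries, so the flags are descriptive. The step between day 4 and day 12 differed for 15 loci. Among the loci named by rule, the T65 step minus the NB step was 3.59 for LOC_Os11g44810, 2.26 for LOC_Os10g36260, 2.18 for LOC_Os06g19200, 2.00 for LOC_Os06g27590, 1.62 for LOC_Os07g34570 and 1.51 for LOC_Os02g07360. It was 1.25 for LOC_Os11g34460, 1.22 for LOC_Os10g30850, 1.14 for LOC_Os03g18870, 0.82 for LOC_Os04g51454 and -2.40 for LOC_Os05g28210. Groups of 2 or 3 libraries were too small for a check of single outlying samples.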

How the results depend on the processing

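The set held 189 loci at a ratio threshold of 1.2, 4 at 2, 73 in the 16 libraries of the higher multi-alignment share, and 38 to 56 with 1 library left out. With no filter beyond a count in any library, the calls among the 44 loci were 7, 8 and 10 for the difference in rise on days 4, 8 and 12, 8 for the T65 step, 25 for the NB step, 23 for the difference between the steps and 11 for T65 minus NB at day 0. In the 16 libraries of the higher share the rise on days 4 and 12, the T65 step and day 0 gave 0 calls, and the clock list gave 14, against 33 in all libraries, of which 18 came from the 3 loci that met the ratios. Without both libraries that stood apart, the difference in rise gave 1 call on day 4 and 1 on day 12, and the T65 step gave 0. DESeq2 gave 4 for the rise on day 4 and 3 for the T65 step. With only the groups compared, the T65 step gave 6 and the NB step 9, and without TMM the day 0 difference gave 3. With 1 library left out, the rise gave 0 to 6 calls on day 4, 0 on day 8 and 1 to 5 on day 12, the T65 step 0 to 2, the NB step 14 to 21, the difference between the steps 12 to 18, day 0 1 to 6, and the clock list 28 to 36. T65 day 12 without a replicate has 1 library, assumed to vary like the other groups. The same holds for T65 day 0 and T65 day 8 in the 16 libraries of the higher share. Shares over all loci tested are not given for these settings, so nothing is read from the counts.

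The replicate block gave 2 calls for the T65 step and moved no other count by over 1.5 times. Deviations of same-numbered libraries correlated above 0.1 in 9 of 33 pairs (-0.40 to 0.50). Between NB days 4, 8 and 12 the correlations were all positive, at 0.06 to 0.50. Libraries with different numbers were not compared, so the numbers were not shown to pair the samples or to leave them unpaired. Of 28 results for single loci, 12 lost their call under at least 1 setting and none changed direction. The 28 include results with no call in the main fit, so fewer than 28 had a call to lose. These were the T65 steps of LOC_Os07g34570, LOC_Os11g44810, LOC_Os05g28210, LOC_Os06g27590 and LOC_Os06g19200. The T65 steps of LOC_Os07g34570, LOC_Os11g44810 and LOC_Os05g28210 gained a call under at least 1 setting. The cause of these changes was not tested. Loci near 1 CPM rest on few counts.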
